A study of Mus musculus with 9 samples.

Results

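The variable (V) segments of the T cell receptor alpha and beta chains were described in T follicular helper (Tfh) cells, the T cells that help B cells in germinal centres. The members were all genes of the deposited table whose symbol starts with Trav (alpha chain) or Trbv (beta chain) and that had a count in at least 1 library. They numbered 148 of 54146 genes, with 118 alpha and 30 beta segments, and another 12 alpha and 5 beta segments were listed at 0 in every library. The quantity followed was the share of each segment in all V counts of its chain in a library.

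A T cell makes its receptor by joining gene segments during its development in the thymus. The alpha chain joins a V to a J segment, and the beta chain joins a V, a D and a J segment. The V segment encodes most of the variable domain, including the loops that lie over the presenting molecule and the start of the loop that reads the peptide. Segment usage in a population reflects both how often each segment is joined and which clones have been selected and expanded.

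CD4+CXCR5+PD1+ cells were sorted from the Peyer's patches of mice, lymphoid follicles in the intestinal wall. The WT/mut group held 5 libraries (replicates 6 to 10) from mice with 1 mutant Tgfbr1 allele, and the WT group held 4 libraries (replicates 1, 3, 4 and 5) from wild-type littermates. The Tgfbr1 gene codes for part of the TGF-beta receptor, and TGF-beta is a cytokine that restrains T cells. The labels give no nature of the mutation, age, sex, litter or sorting day, and they do not state whether each library is its own animal. The p-values below cover the spread between libraries and nothing beyond it. Each library was made from 300 pg of RNA with a kit that does not mark the strand.

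Total counts lay between 29488783 and 37342733 in WT/mut and between 32977915 and 43872686 in WT libraries. The sort was checked against marker genes. The 8 genes of the receptor complex and its co-receptor (Trac, Trbc1, Trbc2, Cd3d, Cd3e, Cd3g, Cd247 and Cd4) summed to between 5985 and 6756 CPM (counts scaled to a common library size) in WT/mut and between 6364 and 7584 CPM in WT libraries. The 5 Tfh genes Cxcr5, Pdcd1, Bcl6, Icos and Il21 summed to between 4247 and 4879 CPM in WT/mut and between 4673 and 5780 CPM in WT libraries. Unscaled Icos counts were 24318 to 28242 in WT/mut and 32785 to 52072 in WT libraries. For Il21 they were 11197 to 17674 in WT/mut and 21300 to 33445 in WT libraries. Scaled to library size, Icos still did not overlap and Il21 overlapped narrowly. Cxcr5, Pdcd1 and Bcl6 overlapped. The 7 B cell and plasma cell markers (Cd79a, Cd79b, Ms4a1, Jchain, Ighm, Igha and Igkc) had counts in every library and summed to between 2195 and 3226 CPM in WT/mut and between 1991 and 2336 CPM in WT libraries. Among them Jchain, the joining chain of secreted antibodies, did not overlap between the groups. It lay between 58.0 and 243 CPM in WT/mut and between 11.96 and 42.3 CPM in WT libraries, with an edgeR adjusted p of 0.0904. The CPM of Jchain were scaled as in the edgeR fit, and the sums were scaled to total counts. Unscaled Igha counts did not overlap either, at 4359 to 20955 in WT/mut and 433 to 2974 in WT libraries. Ighm, the largest of the list, overlapped, at 40396 to 73855 counts in WT/mut and 59809 to 85860 in WT libraries. Cd79a, Cd79b, Ms4a1 and Igkc overlapped too. The 2 CD8 markers summed to between 2.87 and 5.32 CPM in WT/mut and between 3.88 and 5.33 CPM in WT libraries. The part of other cell types in the results was not tested.

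The alpha segments lie on chromosome 14 between 52427928 and 53977678 (GRCm38), all on the plus strand, and 108 are annotated as V genes and 10 as V pseudogenes. The beta segments lie on chromosome 6 between 40891229 and 41558452 as 22 V genes and 8 pseudogenes. Of these, 29 are on the plus strand and Trbv31 is on the minus strand. Part of the alpha locus is duplicated in the mouse, with copies marked d or n in the symbol. By transcript sequence, 59 alpha segments fell into 27 groups of copies at least 98% identical, which left 86 units, while no beta segment had such a copy. For 26 alpha segments the deposited values equalled those of another segment in all 9 libraries. The counting method divides reads between near copies by a model, so the value of a single alpha segment with a near copy is uncertain, and summed copies are given for the segments the results turn on.

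The 3′ ends of the transcripts of some segments named below are shown to make clear how far they can be told apart. Not all of these segments differed between the groups. They come from GENCODE M21, 5′ to 3′ on the coding strand, and each name is followed by the gene's span on GRCm38. The 3 segments of the beta family 13, formerly called V beta 8, differed at 23 of the last 100 bases, which are in capitals. Trbv13-1 and Trbv13-2 differed at 16 of these bases, Trbv13-1 and Trbv13-3 at 19, and Trbv13-2 and Trbv13-3 at 11.
Trbv13-1, chr6:41116007-41116468: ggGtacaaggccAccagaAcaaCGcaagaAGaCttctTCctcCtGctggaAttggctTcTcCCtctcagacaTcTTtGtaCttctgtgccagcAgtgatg
Trbv13-2, chr6:41121396-41121832: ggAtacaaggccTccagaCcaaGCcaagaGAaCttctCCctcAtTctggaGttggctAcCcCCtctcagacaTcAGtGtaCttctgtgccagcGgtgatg
Trbv13-3, chr6:41130147-41130585: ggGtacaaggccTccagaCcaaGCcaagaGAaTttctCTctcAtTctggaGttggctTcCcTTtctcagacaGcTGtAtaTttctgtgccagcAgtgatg
The alpha segments Trav9n-4 and Trav9-4 were 97.2% identical over the shorter transcript and differed at 6 of the last 100 bases, in capitals.
Trav9n-4, chr14:53294341-53295030: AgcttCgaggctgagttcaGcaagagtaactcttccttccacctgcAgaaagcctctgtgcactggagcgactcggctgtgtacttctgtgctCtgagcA
Trav9-4, chr14:53676141-53676630: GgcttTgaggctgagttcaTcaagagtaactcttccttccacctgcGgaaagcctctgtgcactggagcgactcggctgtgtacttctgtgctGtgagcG
In Trav7-2, Trav8d-1 and Trav11d the last 60 bases are given, and the capitals mark the codon of the conserved cysteine just before the loop that reads the peptide. Trav7-2 lies whole within the transcript of Trav7d-2, and Trav11d within that of Trav11, with 1 extra base in each case, so the split of counts within these pairs is uncertain.
Trav7-2, chr14:53390635-53391142: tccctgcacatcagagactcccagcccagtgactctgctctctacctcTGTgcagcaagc
Trav8d-1, chr14:52778447-52778995: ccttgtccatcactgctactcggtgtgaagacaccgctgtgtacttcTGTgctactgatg
Trav11d, chr14:52824357-52824912: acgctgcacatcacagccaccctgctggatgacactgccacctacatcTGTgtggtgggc

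V segments took a similar part of the RNA in 8 libraries and stood higher in 1 WT library. Alpha V counts were 0.0524, 0.0539, 0.0536, 0.0541 and 0.0527% of all counts in WT/mut replicates 6 to 10, against 0.0678, 0.0599, 0.0476 and 0.107% in WT replicates 1, 3, 4 and 5. Beta V counts were 0.0557, 0.0606, 0.0522, 0.0620 and 0.0544% in WT/mut replicates 6 to 10, against 0.0484, 0.0590, 0.0455 and 0.0979% in WT replicates 1, 3, 4 and 5. WT replicate 5 lay above every other library for both chains, and the groups overlapped. The same library held 170 counts on alpha J segments and 62 on beta J segments, while the other 8 libraries held 7 to 29 and 2 to 16. In these bulk samples more cells using a segment and more receptor RNA per cell cannot be told apart.

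The constant genes, which all receptors of a chain share, were measured beside the V segments. Trac, the alpha constant gene, had a log2 fold change (WT/mut over WT) of -0.36 ± 0.13 (SE) and an edgeR adjusted p of 0.327. For the beta constant genes Trbc1 and Trbc2 it was -0.13 ± 0.11 and -0.10 ± 0.08, with edgeR adjusted p of 0.624 and 0.608. Alpha V counts per Trac count were 0.461 to 0.580 in WT/mut and 0.457 to 0.667 in WT libraries, with WT replicate 5 highest. Trbc1 made up 46.8 ± 2.7% of beta constant counts in WT/mut and 47.2 ± 1.8% in WT libraries (SD, n = 5 and n = 4), and the ranges overlapped.

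**Figure D1:**
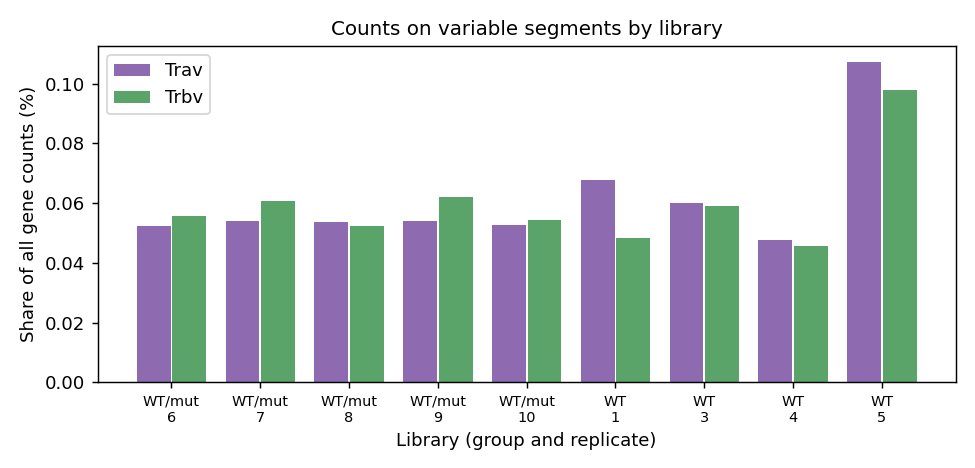
Counts on alpha (Trav) and beta (Trbv) V segments as a percentage of all gene counts, 1 pair of bars per library, with WT/mut libraries on the left and WT libraries on the right. WT replicate 5 stands at 0.107% and 0.0979%, while the other libraries lie between 0.0455% and 0.0678%.

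Alpha usage was spread over many segments. Of the 118 alpha segments, 31 had a mean share of at least 1% over the 9 libraries and together made up 72.1% of alpha V counts, and 32 had a mean share below 0.1%. The 8 leading segments were Trav7d-4, Trav7-4, Trav14d-3-dv8, Trav7-2, Trav14d-2, Trav7-3, Trav7d-3 and Trav3-3, with a summed mean share of 35.1%. Per base of transcript the order began with Trav7d-4, Trav7-2 and Trav7-4, at 5.29 ± 1.27%, 5.23 ± 2.99% and 5.003 ± 1.34% of length-scaled usage (SD, n = 9), which is within their spread. Across the 9 libraries the highest share of a leading segment was between 1.79 and 6.59 times its lowest. Exact two-sided permutation tests of the group difference in share, 1 for each of these 8 segments, gave unadjusted p between 0.0873 and 0.960. Of these segments only Trav14d-3-dv8 and Trav3-3 have no near copy, so the values of the others are uncertain. For the summed pair Trav7-2 and Trav7d-2 the highest share was 4.54 times the lowest, and the groups did not overlap. Trav3-3, which has no near copy, averaged 2.99 ± 0.528% in WT/mut and 2.95 ± 1.13% in WT libraries (SD, n = 5 and n = 4), and WT replicate 1 was highest at 4.63%.

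The family of Trav7 made up the largest part of alpha usage and took a smaller share in WT/mut cells. It held 25.1, 23.6, 26.5, 21.6 and 26.4% in WT/mut replicates 6 to 10, against 29.2, 29.7, 28.4 and 32.7% in WT replicates 1, 3, 4 and 5. Every WT/mut library lay below every WT library, and the means were 24.7 ± 2.08% in WT/mut and 30.01 ± 1.87% in WT libraries (SD, n = 5 and n = 4). Of 19 alpha families with a mean share of at least 0.1%, 2 did not overlap (10.5%), namely Trav7 and Trav8. CPM ranges did not overlap in 4.46% of all genes, on another scale. Since Trav7 was picked for not overlapping, no p is given for its share. Within this family the pair Trav7-2 and Trav7d-2, whose split is uncertain, summed to 4.24, 4.35, 4.26, 2.82 and 5.06% in WT/mut replicates 6 to 10, against 5.77, 5.77, 8.25 and 12.8% in WT replicates 1, 3, 4 and 5. The groups did not overlap, and WT replicate 5 was the highest. In an edgeR fit with copies summed, the pair had a log2 fold change of -1.54 ± 0.38 (SE) and an adjusted p of 0.192, and 0 of 88 units tested were called. Without WT replicate 5 the same fit gave -0.81 ± 0.16 (SE), with an edgeR adjusted p of 0.172. Trav7-2 counted alone had -1.22 in the fit of all libraries and -0.26 without WT replicate 5. The largest pair of the family, Trav7-4 and Trav7d-4, averaged 10.7 ± 2.36% in WT/mut and 13 ± 1.46% in WT libraries (SD, n = 5 and n = 4), and the pair Trav7-3 and Trav7d-3 averaged 6.63 ± 1.26% in WT/mut and 6.82 ± 2.07% in WT libraries (SD, n = 5 and n = 4). Both overlapped between the groups.

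The family of Trav8 took a larger share in WT/mut cells. It held 4.999, 4.90, 4.66, 5.77 and 5.22% in WT/mut replicates 6 to 10, against 3.39, 3.45, 3.55 and 2.75% in WT replicates 1, 3, 4 and 5. The groups did not overlap, and the means were 5.11 ± 0.421% in WT/mut and 3.28 ± 0.363% in WT libraries (SD, n = 5 and n = 4). Its main segment, Trav8d-1, which has no near copy, held 2.85, 3.32, 3.45, 3.29 and 3.45% in WT/mut replicates 6 to 10, against 2.04, 2.63, 2.61 and 1.95% in WT replicates 1, 3, 4 and 5. On the scale of CPM, which is not relative to the alpha total, Trav8d-1 had a log2 fold change of 0.12 ± 0.17 (SE) and an edgeR adjusted p of 0.798. Trav8n-2 averaged 1.21 ± 0.429% in WT/mut and 0.494 ± 0.146% in WT libraries (SD, n = 5 and n = 4), with a log2 fold change of 0.97 ± 0.33 (SE) and an edgeR adjusted p of 0.312.

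In the family of Trav9 the mean shares of single segments differed in direction. Trav9n-4 held 3.42, 3.21, 3.27, 3.47 and 2.41% in WT/mut replicates 6 to 10, against 1.19, 2.21, 1.93 and 0.597% in WT replicates 1, 3, 4 and 5. The lowest WT/mut library lay just above the highest WT library, and WT replicate 5 had the lowest share. In CPM its log2 fold change of 0.84 ± 0.22 (SE) had an edgeR adjusted p of 0.218. Trav9-4 averaged 2.26 ± 0.806% in WT/mut and 1.13 ± 0.443% in WT libraries (SD, n = 5 and n = 4), again without overlap, with WT/mut replicate 7 at 3.66% well above the other WT/mut libraries. In CPM its log2 fold change of 0.68 ± 0.27 (SE) had an edgeR adjusted p of 0.368, and without WT/mut replicate 7 it was 0.45 ± 0.24 (SE). The 3 copies Trav9-2, Trav9d-2 and Trav9n-2 together averaged 2.23 ± 0.250% in WT/mut and 1.41 ± 0.404% in WT libraries (SD, n = 5 and n = 4) and did not overlap, though their margin was small, with 1.93% in the lowest WT/mut and 1.89% in the highest WT library. Trav9-1 and Trav9d-1 together averaged 3.44 ± 0.390% in WT/mut and 4.62 ± 2.12% in WT libraries (SD, n = 5 and n = 4), and WT replicate 4 alone stood at 7.65%. The whole family averaged 12.6 ± 1.53% in WT/mut and 10.1 ± 3.63% in WT libraries (SD, n = 5 and n = 4) and overlapped.

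In the family of Trav14, Trav14d-3-dv8, Trav14d-2, Trav14n-3 and Trav14-2 had lower mean shares in WT/mut cells. The pair Trav14d-1 and Trav14n-1 had a higher one. Trav14n-3, which has no near copy, averaged 2.07 ± 0.689% in WT/mut and 3.44 ± 0.939% in WT libraries (SD, n = 5 and n = 4). Its groups overlapped, and WT replicate 5 was highest at 4.84%. Trav14d-3-dv8, which the delta chain can also use, held 5.10, 3.53, 5.31, 3.72 and 4.65% in WT/mut replicates 6 to 10, against 6.38, 4.82, 5.14 and 7.08% in WT replicates 1, 3, 4 and 5. Its groups overlapped, its exact two-sided permutation p was 0.0873, and in CPM edgeR gave -0.89 ± 0.29 (log2 fold change ± SE, adjusted p of 0.300), or -0.48 ± 0.21 without WT replicate 5. Trav14-2 had the lowest edgeR p of all V segments and held 0.665, 0.763, 0.579, 0.495 and 0.533% in WT/mut replicates 6 to 10, against 1.42, 1.53, 0.754 and 0.684% in WT replicates 1, 3, 4 and 5. Its groups overlapped only by WT replicates 4 and 5, which lay within the WT/mut range, and in CPM edgeR gave -1.24 ± 0.31 (log2 fold change ± SE, adjusted p of 0.196). Trav14d-1 and Trav14n-1, whose values are equal in every library, together averaged 2.33 ± 0.490% in WT/mut and 1.35 ± 0.137% in WT libraries (SD, n = 5 and n = 4) without overlap. Trav14d-2 averaged 3.71 ± 0.656% in WT/mut and 4.65 ± 2.02% in WT libraries (SD, n = 5 and n = 4) and overlapped, with WT replicate 1 highest at 7.00%. Summed with its near copy Trav14n-2 it averaged 3.74 ± 0.698% in WT/mut and 4.67 ± 2.03% in WT libraries (SD, n = 5 and n = 4).

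**Figure D2:**
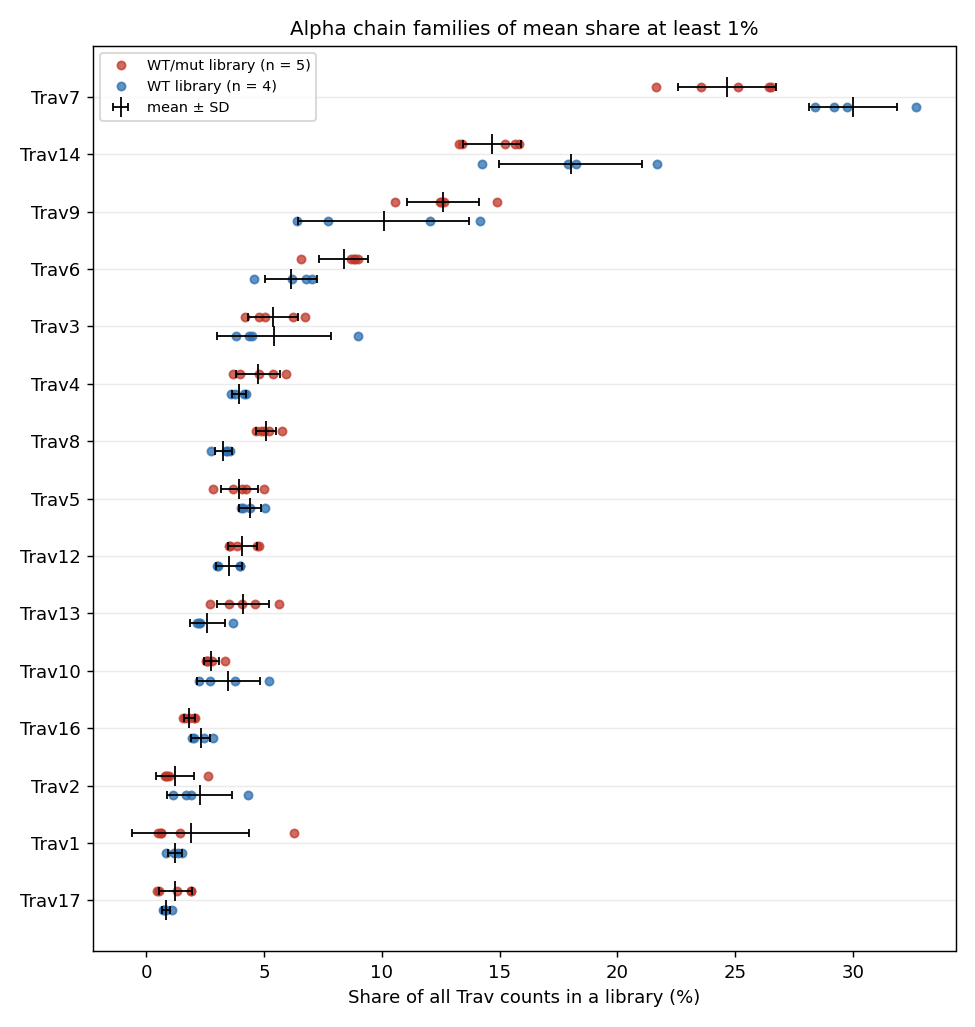
Share of all Trav counts in a library (%) for the alpha families of mean share at least 1%. Each point is a library, with WT/mut above WT in each row, and the bar gives mean ± SD. Only Trav7, lower in all 5 WT/mut libraries, and Trav8, higher in all 5, do not overlap between the groups. They are 2 of the 19 alpha families of mean share at least 0.1% (10.5%). CPM ranges did not overlap in 4.46% of all genes, on another scale.

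Counted over all alpha segments, shares that did not overlap between the groups were found in 9 of 86 segments of mean share at least 0.1%, all 9 higher in WT/mut. They were Trav8d-1, Trav9n-4, Trav9-4, Trav6d-4, Trav14d-1, Trav14n-1, Trav8n-2, Trav12-1 and Trav6-1. With copies summed, they were 10 of 64 units, 9 higher and 1, the pair Trav7-2 and Trav7d-2, lower. Among all 15521 genes tested, CPM ranges did not overlap in 4.46%, but CPM and chain shares are different scales. On the CPM scale itself 4 of 111 V segments did not overlap, namely Trav6-1 and Trav6d-4 with higher and Trav16d-dv11 and Trav16n with lower levels in WT/mut, a fraction near that of all genes (2.09% higher and 2.38% lower). Trav16n has the near copy Trav16, so its own level is uncertain, and the summed pair had an edgeR log2 fold change of -0.72 ± 0.25 (SE) and an adjusted p of 0.313. Shares within a chain are not independent of one another, since a smaller share of some segments leaves a larger share to others. The part of this in the higher shares above was not tested.

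Alpha usage was more even in every WT/mut library than in any WT library. Evenness was measured as the effective number of segments, the inverse Simpson index, which is the number of equally used segments that would give the same concentration. It was 40.98, 44.8, 37.1, 41.6 and 37.4 segments in WT/mut replicates 6 to 10, against 30.4, 34.04, 33.9 and 29.2 segments in WT replicates 1, 3, 4 and 5. The groups did not overlap, with means of 40.4 ± 3.2 in WT/mut and 31.9 ± 2.5 in WT libraries (SD, n = 5 and n = 4). As a summary over the members it was given no test. With near copies summed the values were 23.99 to 31.8 in WT/mut and 19.4 to 22.2 in WT libraries, and by family they were 7.60 to 9.39 in WT/mut and 6.24 to 7.23 in WT libraries. The groups did not overlap by either measure. The 3 leading segments of each library held 13.9 to 18.99% of alpha counts in WT/mut and 19.99 to 22.9% in WT libraries. The number of segments with at least 1 count overlapped, at 99 to 109 in WT/mut and 101 to 109 in WT libraries, and it remained overlapping when all libraries were set to the same alpha total, at 99 to 108.9 in WT/mut and 101 to 105.7 in WT libraries. Alpha totals overlapped, at 15951 to 20018 counts in WT/mut and 16571 to 47051 in WT libraries.

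**Figure D3:**
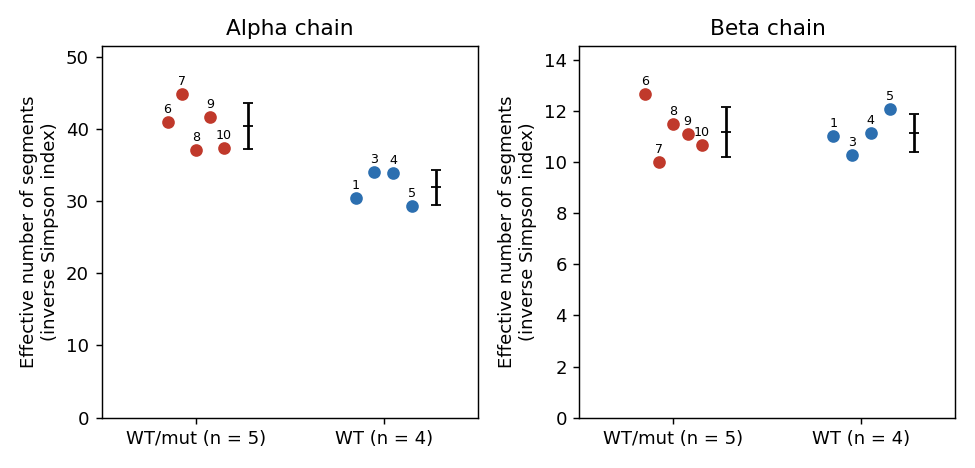
Effective number of V segments (inverse Simpson index) per library for the alpha chain (left) and the beta chain (right). Points are libraries labelled by replicate, with WT/mut left of WT, and the bar gives mean ± SD. For the alpha chain all 5 WT/mut libraries lie above all 4 WT libraries, while for the beta chain the groups overlap.

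Beta usage was concentrated in fewer segments and was alike in evenness in the groups. The 16 beta segments of mean share at least 1% made up 98.1% of beta V counts, and the 8 leading ones 73.4%. By mean share the order was Trbv19, Trbv3, Trbv31, Trbv5, Trbv1, Trbv2, Trbv13-2 and Trbv13-1. Per base of transcript the order began with Trbv3, Trbv19 and Trbv5. Neighbours in this order did not differ beyond their spread over libraries: scaled to length, Trbv3 averaged 10.8 ± 4.63%, Trbv19 10.7 ± 2.22%, Trbv5 10.1 ± 2.55% and Trbv31 9.96 ± 2.72% of beta usage (SD, n = 9). The effective number of beta segments was 12.6, 10.01, 11.5, 11.1 and 10.7 in WT/mut replicates 6 to 10, against 11.03, 10.3, 11.1 and 12.1 in WT replicates 1, 3, 4 and 5. The means were 11.2 ± 1.0 in WT/mut and 11.1 ± 0.7 in WT libraries (SD, n = 5 and n = 4).

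Of the 21 beta segments of mean share at least 0.1%, 20 overlapped between the groups. Trbv19 held 14.4, 15.4, 15.8, 10.9 and 16.5% in WT/mut replicates 6 to 10, against 18.98, 11.5, 15.9 and 10.9% in WT replicates 1, 3, 4 and 5. Trbv3 held 4.39, 18.5, 14.02, 10.7 and 10.9% in WT/mut replicates 6 to 10, against 7.25, 20.2, 9.67 and 10.9% in WT replicates 1, 3, 4 and 5, so that both groups spanned a wide range and overlapped. Trbv31, the inverted segment, held 8.46, 6.73, 7.63, 7.06 and 14.6% in WT/mut replicates 6 to 10, against 9.91, 11.5, 11.5 and 12.4% in WT replicates 1, 3, 4 and 5. WT/mut replicate 10 lay above all other libraries, and the other 4 WT/mut libraries lay below every WT library. Trbv5 averaged 9.50 ± 2.24% in WT/mut and 8.31 ± 2.59% in WT libraries (SD, n = 5 and n = 4). Trbv1 averaged 8.83 ± 2.85% in WT/mut and 7.01 ± 0.318% in WT libraries (SD, n = 5 and n = 4), with the 4 WT libraries close together between 6.73 and 7.33%. Trbv2 averaged 6.98 ± 1.35% in WT/mut and 6.70 ± 2.29% in WT libraries (SD, n = 5 and n = 4). Trbv17, which varied widely relative to its mean, averaged 1.92 ± 0.922% in WT/mut and 1.75 ± 0.447% in WT libraries (SD, n = 5 and n = 4), with WT/mut replicate 6 highest at 3.50%. All 4 overlapped between the groups. For the 8 leading beta segments, exact two-sided permutation tests of the group difference in share gave unadjusted p between 0.159 and 0.944.

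Trbv13-3 was the 1 beta segment of that share that did not overlap, or 4.76% of the 21. Among all genes tested, CPM ranges did not overlap in 4.46%, a near fraction though on another scale. It held 4.44, 3.16, 3.41, 3.48 and 3.74% in WT/mut replicates 6 to 10, against 4.88, 7.13, 5.07 and 5.06% in WT replicates 1, 3, 4 and 5, and the means were 3.65 ± 0.489% in WT/mut and 5.54 ± 1.07% in WT libraries (SD, n = 5 and n = 4). All WT/mut libraries were lower, with 4.44% in the highest WT/mut and 4.88% in the lowest WT library. In CPM edgeR gave a log2 fold change of -0.76 ± 0.23 (SE) with an adjusted p of 0.274. The neighbouring Trbv13-2 averaged 6.09 ± 0.804% in WT/mut and 7.34 ± 1.55% in WT libraries (SD, n = 5 and n = 4) and Trbv13-1 averaged 7.51 ± 4.62% in WT/mut and 5.36 ± 1.11% in WT libraries (SD, n = 5 and n = 4), and both overlapped. For Trbv13-1, WT/mut replicate 9 stood at 15.7%, while the other 4 WT/mut libraries lay between 4.65 and 5.90%. The whole family 13 averaged 17.2 ± 4.68% in WT/mut and 18.2 ± 1.79% in WT libraries (SD, n = 5 and n = 4). Trbv29, a minor segment with the second lowest edgeR p among beta segments, held 0.199, 1.48, 0.390, 0.405 and 0.241% in WT/mut replicates 6 to 10, against 0.0939, 0.384, 0.145 and 0.0606% in WT replicates 1, 3, 4 and 5. Its log2 fold change of 1.65 ± 0.73 (SE) had an edgeR adjusted p of 0.403, and WT/mut replicate 7 stood above all other libraries. Without that library the edgeR log2 fold change was 0.82 ± 0.61 (SE).

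**Figure D4:**
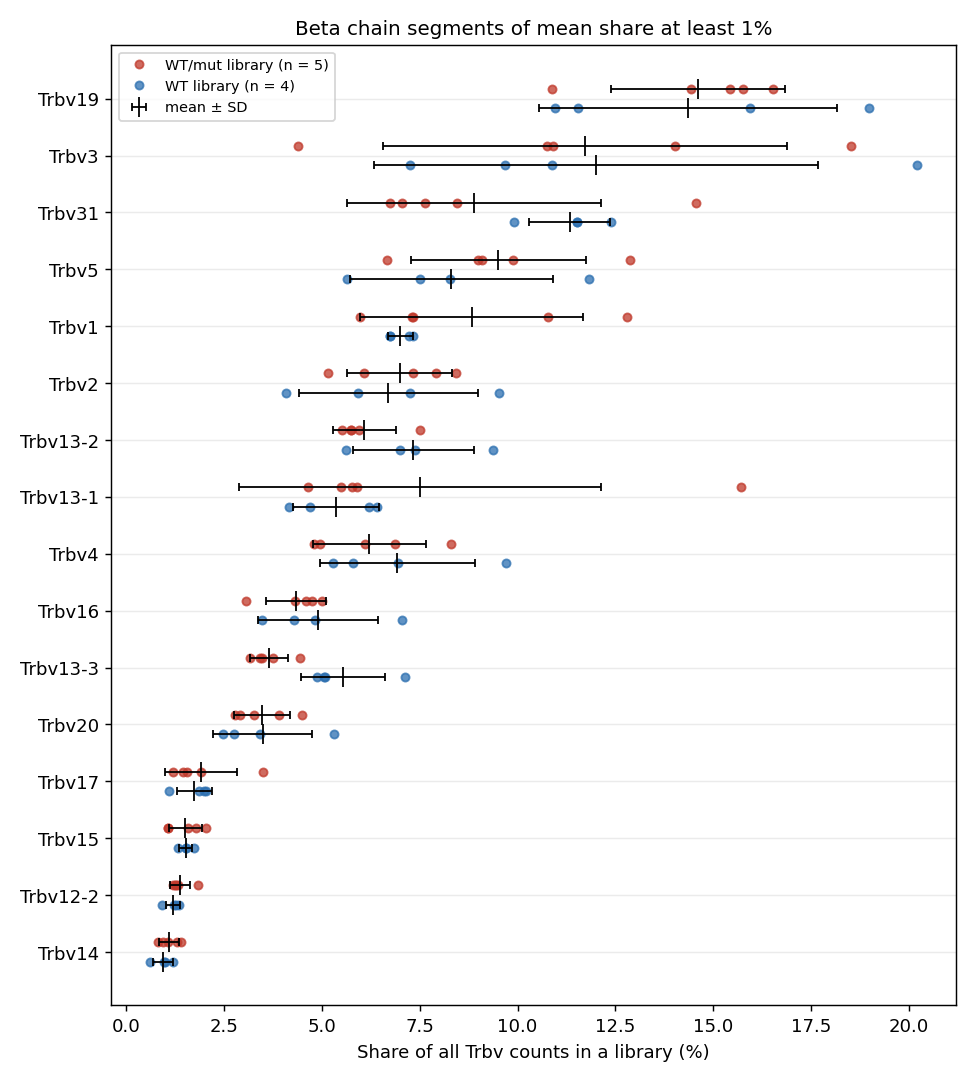
Share of all Trbv counts in a library (%) for the beta segments of mean share at least 1%. Each point is a library, with WT/mut above WT in each row, and the bar gives mean ± SD. Trbv13-3 is the only 1 of the 16 segments shown without overlap (6.25%), at 3.16 to 4.44% in WT/mut and 4.88 to 7.13% in WT libraries. CPM ranges did not overlap in 4.46% of all genes.

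Tested over all genes, edgeR called no V segment. Its quasi-likelihood test with Benjamini-Hochberg adjustment called 0 of 111 tested V segments, against 19 of 15521 genes (0.122%, or 0.0902% with a lower level). At an unadjusted p under 0.05 it listed 21 V segments, 5 with higher and 16 with lower levels in WT/mut, or 4 higher and 15 lower among 89 alpha and 1 higher and 1 lower among 22 beta segments. Of all genes 12.2% had such a p, 5.69% with a higher and 6.46% with a lower level. DESeq2 called 4 V segments, namely Trav14n-3, Trav9d-1 and Trav14-2 with lower and Trav9n-4 with higher levels in WT/mut, against 1.86% of all genes. Of these Trav9d-1 has the near copy Trav9-1, and the summed pair had an edgeR log2 fold change of -0.74 ± 0.19 (SE) and an adjusted p of 0.209. The 37 segments not tested had counts too low for the filter.

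The direction of the V segments as a set turned with 1 library and with the method of fitting. The median log2 fold change was -0.17 over the 111 tested V segments, with 39 above 0 and 72 below, while the median of all genes was 0.0015. By chain the median was -0.38 over the 89 alpha and -0.03 over the 22 beta segments. Without WT replicate 5, the library with the highest V counts, the median was 0.11 over V segments, 0.05 over alpha and 0.24 over beta segments, with 65 of 111 above 0. The fold change was higher without that library for 78 of the 89 alpha and 19 of the 22 beta segments. Without WT replicate 5, 13 V segments had an unadjusted p under 0.05 and edgeR called 0, and without WT/mut replicate 7 as well these were 5 and 0. With all 9 libraries kept, limma with library weights gave a median of 0.053, with 57 V segments above 0 and 54 below. No direction is therefore given for V segment levels as a whole.

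**Figure D5:**
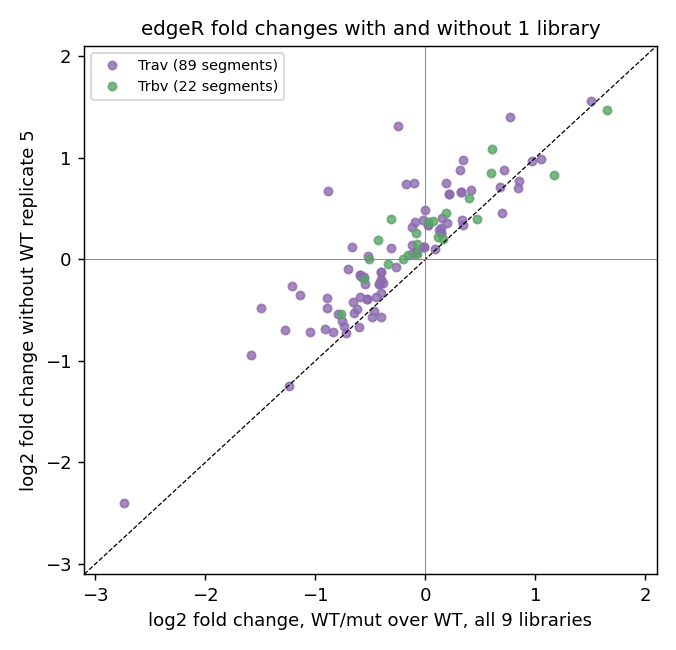
Log2 fold change (WT/mut over WT) of each of the 111 tested V segments in the edgeR fit of all 9 libraries (horizontal axis) and without WT replicate 5 (vertical axis), with a dashed line of equality. Most points lie above the line, and the medians are -0.38 and 0.05 for alpha and -0.03 and 0.24 for beta segments.

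The segments of innate-like T cells were looked at by name. Trav11 and Trav11d encode the alpha V segment of invariant NKT cells, which recognise lipids, and Trav1 that of MAIT cells, which recognise vitamin metabolites. Trav11 had 95 counts in WT/mut replicate 7 and 0 in the other 8 libraries, whereas Trav11d had 8 counts in WT/mut replicate 7 and 13 to 108 counts in the others. Summed, the pair held 0.423, 0.623, 0.200, 0.251 and 0.190% in WT/mut replicates 6 to 10, against 0.483, 0.211, 0.0785 and 0.136% in WT replicates 1, 3, 4 and 5, and the groups overlapped. Traj18, the J segment of that receptor, had 1 to 4 counts in WT/mut and 0 to 15 in WT libraries. Trav1 held 0.494, 0.648, 0.639, 6.27 and 1.42% in WT/mut replicates 6 to 10, against 1.35, 1.19, 1.53 and 0.846% in WT replicates 1, 3, 4 and 5. It stood at 6.27% in WT/mut replicate 9 and at no more than 1.53% elsewhere, while Traj33, the J segment of MAIT receptors, had 0 counts in all 5 WT/mut libraries and 0, 0, 1 and 6 in WT replicates 1, 3, 4 and 5. Conventional T cells can use these V segments too.

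WT/mut replicate 9 also stood apart in other segments. Trav7-1 held 5.35% there and 0.528 to 1.47% in the other libraries, and Trbv13-1 held 15.7% there and 4.16 to 6.41% elsewhere. Alpha usage was compared between pairs of libraries as the summed smaller share of each segment, which is 100% for equal usage. WT/mut replicate 9 shared on average 74.4% of alpha usage with the other 8 libraries, the lowest value, and WT replicate 5 shared 75.7%. For the other 7 libraries it was 77.7 to 82.5%. Over pairs the median was 82.6% within WT/mut, 78.9% within WT and 77.8% between the groups, and the ranges overlapped. For the beta chain the medians were 83.8% within WT/mut, 83.9% within WT and 83.9% between the groups.

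WT/mut replicate 7 held RNA of genes used in V(D)J joining. Rag1 and Rag2, which encode the recombinase, had 188 and 4 counts there, and Dntt, which adds bases at the joints, had 52. In the other 8 libraries Rag1 had 0 or 1, Rag2 0, and Dntt 0 to 21 counts. Summed with Ptcra, the partner chain of immature cells, these genes reached 8.22 CPM in WT/mut replicate 7 and 0 to 0.501 CPM elsewhere. Trav9d-4 was found in WT/mut replicate 7 at 0.266% and in WT replicate 5 at 0.446%, and in no other library. Whether these observations are linked was not tested.

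By position and kind of segment the groups overlapped. Segments with the letter d, which lie between 52683964 and 53079045, made up 36.1 ± 2.6% of alpha counts in WT/mut and 40.3 ± 4.0% in WT libraries (SD, n = 5 and n = 4). Segments with the letter n, between 53091346 and 53370575, made up 14.98 ± 0.69% in WT/mut and 13.7 ± 1.2% in WT libraries, and segments with neither letter 48.96 ± 3.07% in WT/mut and 46.03 ± 3.79% in WT libraries. The 10 alpha segments that the delta chain can share (dv in the symbol) made up 6.996 to 9.01% in WT/mut and 7.85 to 10.5% in WT libraries. The delta constant gene Trdc itself had 172 to 503 counts in WT/mut and 52 to 310 in WT libraries. All 4 classes overlapped between the groups. Pseudogenes made up 0.388 to 0.757% of alpha counts in WT/mut and 0.416 to 0.899% in WT libraries, and 0.120 to 0.282% of beta counts in WT/mut and 0.111 to 0.276% in WT libraries. The leading ones were Trav4d-2, at 0.293 ± 0.105% in WT/mut and 0.230 ± 0.0787% in WT libraries (SD, n = 5 and n = 4), Trav9n-1, at 0.182 ± 0.0259% in WT/mut and 0.295 ± 0.182% in WT libraries (SD, n = 5 and n = 4), and Trbv24, at 0.208 ± 0.0688% in WT/mut and 0.180 ± 0.0769% in WT libraries (SD, n = 5 and n = 4).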

How the data were processed

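Messenger RNA was measured in 9 libraries, 5 WT/mut and 4 WT. The authors deposited expected counts (RSEM estimates, often fractional) for every gene. Tools named per the submitters' processing notes are cutadapt 2.10, STAR 2.5.3, RSEM 1.3.0 and DESeq2, with build mm10. Their annotation is not stated in those notes. Between 60.8% and 73.6% of a library's V segment values were not whole, and all values were rounded. All 148 segments were found by identifier in GENCODE M21 (GRCm38). Shares are counts of a segment over all V counts of its chain. Levels were tested with edgeR 4.0.16 in R 4.3.3 (quasi-likelihood F test, robust, TMM, filterByExpr with minimum count 10 and total 15, Benjamini-Hochberg adjustment over 15521 genes, threshold 0.05). The SE is the absolute log2 fold change over the square root of F. The exact permutation test used all 126 splits, with a smallest p of 0.00794. Near copies were defined with edlib 1.3.9.post1 at 98% identity. The edgeR procedure was tested on simulated data with changes set in 50 genes per fold. It recovered 10 at 1.5-fold, 38 at 2-fold, 48 at 4-fold and 50 at 8-fold, and 6 of 152 calls were false. Genes of low level were not among those changed, so small changes and low-level segments could be missed. Alternatives were DESeq2 1.42.0, limma 3.58.1 (voom with library weights), other scalings, no filter, other denominators and indices, and leaving out each library.

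Named segments were, per chain, the 8 of highest mean share, up to 5 of mean share at least 1% without overlap, up to 3 with the largest coefficient of variation at that share, up to 2 of lowest edgeR p, the 2 leading pseudogenes, and Trav11, Trav11d and Trav1. Other segments were named after their values were seen. Members, lists and tests were chosen with earlier results of these data known, and summing of copies was added after seeing the data. The kit adds no molecular identifiers, so reads are not independent molecules.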

Additional observations from a re-analysis of the deposited data

Results flagged for a closer look

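The 32 named segments gave 64 groups of shares, 1 for WT/mut and 1 for WT each. Trav11 was at 0 in every WT library, so that group could not be examined. In 14 groups, 1 library stood apart from the others of its group by more than Dixon's 95% limit. Chance would give this in about 1 in 20 groups. Some of the segments were named for their wide variation or their place among the lowest p-values, so the number found is not to be set against that rate. WT/mut replicate 9 stood high in Trav1 (6.27% against 0.494 to 1.42% in the other WT/mut libraries), Trav7-1 (5.35% against 0.788 to 1.47%) and Trbv13-1 (15.7% against 4.65 to 5.90%). WT/mut replicate 7 stood high in Trav9-4 (3.66% against 1.70 to 2.20%), Trbv29 (1.48% against 0.199 to 0.405%), Trbv22 (0.0108% against 0.00512 to 0.00553%, with 2 counts against 1 in each other library) and Trav11 (0.575% against 0 in the others). WT/mut replicate 10 stood high in Trbv31 (14.6% against 6.73 to 8.46%) and low in Trav9n-4 (2.41% against 3.21 to 3.47%). WT/mut replicate 6 stood high in Trbv13-2 (7.499% against 5.50 to 5.94%) and low in Trav8d-1 (2.85% against 3.29 to 3.45%). Among WT libraries, replicate 1 stood high in Trav3-3 (4.63% against 2.21 to 2.54%), replicate 3 in Trbv13-3 (7.13% against 4.88 to 5.07%) and replicate 5 in the pseudogene Trbv22 (0.0489%, or 21 counts, against 0 in the others). Outside the V segments, WT replicate 5 held 170 counts on alpha J segments, against 7 to 17 in the other WT libraries, and 62 on beta J segments, against 3 to 7.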

How the results depend on the processing

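No paired analysis was possible because the labels do not give the litter of a library. A pairing by litter may exist and was not modelled. No V segment was called by edgeR or limma under any alternative run, the fits without each library and with copies summed included, and limma with library weights had 12 at an unadjusted p under 0.05. DESeq2 called 4. Of 88 summary values under alternatives, 63 stayed close to the reported value and 25 moved. Without overlap were 3 of 31 alpha segments at a mean share of at least 1% (9.68%) and 2 of 19 alpha families (10.5%). Without each library, 9 to 13 alpha segments did not overlap. For the beta chain these were 0 of 18 families, and 1 to 2 segments without each library. CPM ranges did not overlap in 4.46% of all genes, on another scale. The mean effective number for the alpha chain was 56.7 in WT/mut and 49.4 in WT libraries by the exponential of Shannon entropy, 8.26 in WT/mut and 6.62 in WT libraries over families, and 27.8 in WT/mut and 20.7 in WT libraries with copies summed. For the beta chain it was 13.7 in WT/mut and 13.4 in WT libraries by entropy, and 9.21 in WT/mut and 8.96 in WT libraries over families. Without each library it ranged over 39.3 to 41.2 in WT/mut and 31.17 to 32.8 in WT libraries for the alpha chain, and 10.8 to 11.5 in WT/mut and 10.8 to 11.4 in WT libraries for the beta chain. At a minimum of 3 counts the mean number of alpha segments detected was 99.0 in WT/mut and 99.8 in WT libraries, and at 10 counts 90.4 in WT/mut and 91.0 in WT libraries. For beta segments it was 22.8 in WT/mut and 23.0 in WT libraries at 3 counts, and 22.0 in both groups at 10 counts. With library weights, these log2 values changed sign: Trav1 -0.62, Trav4d-2 0.15, Trbv19 0.075, Trbv2 0.26, Trbv17 0.11, Trav11d 0.078. Without both WT/mut replicate 7 and WT replicate 5 (added after seeing the data), these log2 values changed sign: Trav7-3 0.011, Trav4d-2 0.075, Trbv19 0.019, Trbv2 0.18, Trbv13-2 0.013, Trbv17 0.32. With library size only, these log2 values changed sign: Trav4d-2 0.019. With CPM in place of chain shares, these log2 values changed sign: Trav7-3 -0.23, Trav3-3 -0.36, Trbv19 -0.037, Trbv2 -0.035, Trbv17 -0.047. When each library, or WT/mut replicate 7 with WT replicate 5, was left out, these edgeR log2 fold changes took both signs: Trav7-3 -0.39 to 0.011, Trav1 -0.98 to 0.61, Trav7-1 -0.10 to 1.56, Trav4d-2 -0.22 to 0.13, Trbv19 -0.18 to 0.054, Trbv3 -0.45 to 0.076, Trbv5 -0.13 to 0.48, Trbv1 -0.0031 to 0.46, Trbv2 -0.26 to 0.18, Trbv13-2 -0.69 to 0.013, Trbv13-1 -0.16 to 0.70, Trbv17 -0.39 to 0.32, Trbv24 -0.077 to 0.27, Trav11d -0.80 to 0.19. So did these log2 ratios of mean shares: Trav7-3 -0.012 to 0.25, Trav7d-3 -0.51 to 0.32, Trav3-3 -0.10 to 0.32, Trav1 -0.62 to 0.87, Trbv19 -0.084 to 0.19, Trbv3 -0.26 to 0.34, Trbv2 -0.12 to 0.28, Trbv17 -0.19 to 0.27, Trav11d -0.40 to 0.65. The cause was not tested. There were 495 alternative fold changes of named segments, Trac, Trbc1 and Trbc2, from edgeR, DESeq2 and limma fits. Of these, 458 kept direction and side of the threshold and 35 changed sign, and of 367 share ratios these were 322 and 27. For 3 summed pairs, all 27 fold changes without each library (added after seeing the data) kept direction, and none was called. Low-count segments under the filter had too little depth for a test.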
